A study of Mus musculus with 20 samples.

Results

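The collagen genes of the mouse liver were taken as every row of the liver count table whose gene symbol has the form Col, a type number, the letter a and a chain number. That rule found 44 genes among 48440 gene rows. Liver RNA came from 20 female wild-type C57BL/6 mice, 8 weeks old at the start and treated for 5 weeks, with 5 mice in each of 4 groups. The Isotype + Vehicle mice drank vehicle and received an IgG2a isotype control antibody. The Isotype + CORT mice received the same control antibody and corticosterone (CORT), the main rodent glucocorticoid, at 100 μg/ml in the drinking water. The αACBP + Vehicle and αACBP + CORT mice instead received a monoclonal antibody that neutralizes acyl-CoA-binding protein (ACBP, also called DBI), injected intraperitoneally at 5 mg/kg, 2 times a week as the control antibody was. The ethanol vehicle was therefore common to all groups, and every mouse was injected with an antibody. The comparisons ask what CORT did to collagen transcripts and whether neutralizing ACBP altered it, for fibrillar against basement membrane types in particular.

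Collagens are triple helices and make up much of the extracellular matrix. Fibrillar collagens (types I, III and V among them) build the cables of the portal tract, the capsule and scar tissue. Type IV collagen instead forms the sheet-like network of basement membranes, and type VI forms beaded filaments around cells. The FACIT collagens decorate fibril surfaces, and the multiplexins XV and XVIII carry sugar chains and sit in basement membrane zones. In the healthy liver most fibrillar collagen is made by stellate cells and portal fibroblasts, endothelial cells contribute type IV, and hepatocytes are a known source of type XVIII.

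Counts assigned to genes totalled 14934926 to 20299999 per liver, so that 3 counts, the upper limit that a count of 0 allows, corresponded to 0.148 to 0.201 CPM, the count scaled by library size. Such limits cover counting error only. Of the 44 collagens, 30 passed the filter on low counts and were tested among 16071 genes. The other 14 included Col2a1, Col11a1, Col19a1 and Col26a1, which had no count in any liver, and 10 genes with a count in some livers, never above 28 in one liver (Col17a1). Among the latter were all 3 network-forming collagens, Col8a1, Col8a2 and Col10a1. The tissue label was borne out by hepatocyte transcripts: Alb, Apoa1, Ttr, Fgb and Cps1 together held 36739 to 136250 CPM. One library stood apart, replicate 5 of αACBP + Vehicle, with the lowest of these sums and the largest scaling factor (1.29). Leaving it out ended 1 collagen call named below, that of Col27a1, and added 1, that of Col14a1 between αACBP + CORT and Isotype + Vehicle.

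Transcripts of one collagen outnumbered all others. Col18a1, the source of the endostatin fragment, held 71.2% of the summed collagen CPM, at a mean of 1101 CPM over the 20 livers. Per kb of exon sequence its level was 156 CPM, against 15.97 for Col5a3 and 8.14 for Col27a1, the next in order. Col14a1 (3.74), Col6a1 (3.13), Col20a1 (2.88), Col3a1 (2.46), Col5a1 (2.28), Col4a1 (2.198) and Col4a2 (2.11) followed on the same scale. The last 4 of these lay close together. The chains of type I collagen, the main scar collagen, were lower still, at 1.19 CPM per kb for Col1a2 and 0.947 for Col1a1. The lowest tested members were Col6a6 and Col4a6, with 0.0453 and 0.0337 CPM per kb, and Col4a6 was at 0 in 12 livers.

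**Figure D1:**
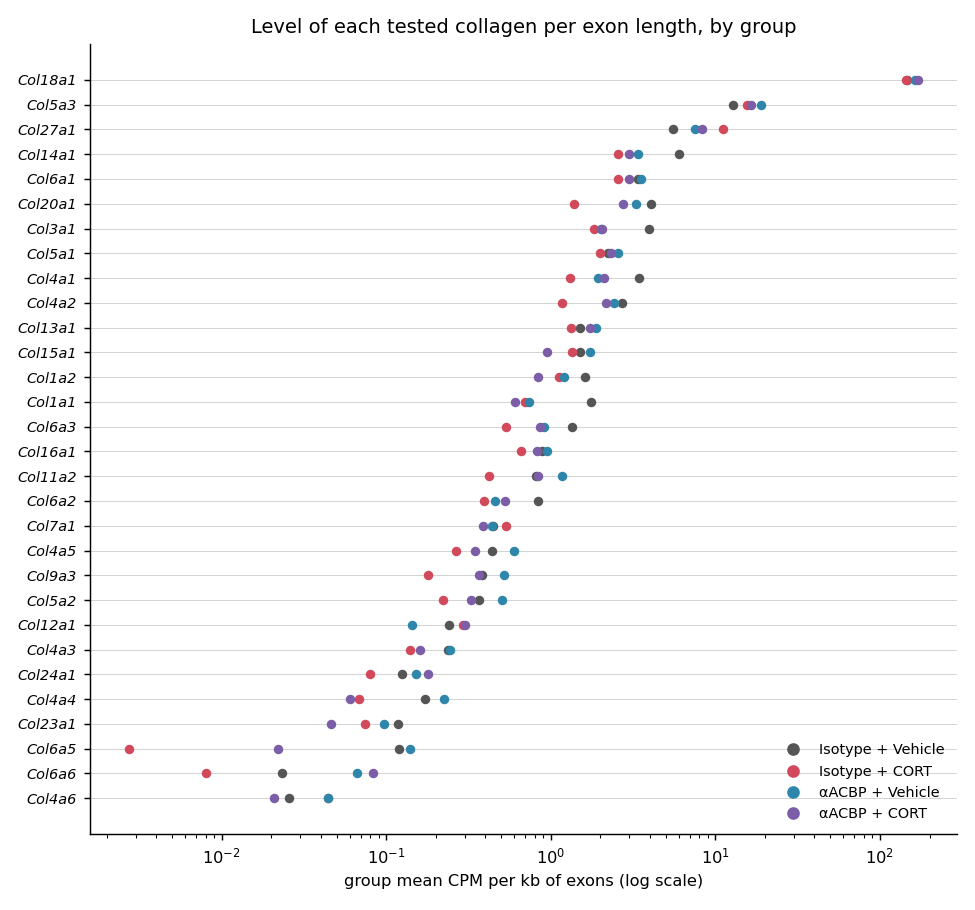
Mean level of each of the 30 tested collagens in each group (colour), as CPM per kb of exon sequence on a log scale, ordered by the mean over 20 livers. Col18a1 lies apart at 156 CPM per kb, Col5a3 and Col27a1 come next at 15.97 and 8.14, and the Isotype + CORT points of Col4a1, Col4a2, Col14a1 and Col20a1 lie to the left of the other groups.

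Promoter sequence is shown for 3 collagens whose transcripts changed with CORT: Col3a1 and Col6a3, which fell, and Col27a1, which rose. Each is the stretch of 250 bases before the gene's start, written along the gene's own strand (RefSeq, GRCm38.p6), at chr1:45311288-45311537 on the plus strand, chr1:90843972-90844221 on the minus strand and chr4:63215162-63215411 on the plus strand. No other RefSeq gene overlaps these stretches. The RefSeq table held such stretches for 6 of the 7 collagens called with CORT below. The 3 shown here all lost their call when certain single livers were left out. Capitals mark matches on either strand to any of 4 motifs. The first was TGTTCT, the hexamer at the core of glucocorticoid receptor binding sites. The second, GGGCGG, is the GC box of many housekeeping promoters. The others were the CCAAT box, searched by those letters, and the TATA box, searched as TATAAA.
Col3a1: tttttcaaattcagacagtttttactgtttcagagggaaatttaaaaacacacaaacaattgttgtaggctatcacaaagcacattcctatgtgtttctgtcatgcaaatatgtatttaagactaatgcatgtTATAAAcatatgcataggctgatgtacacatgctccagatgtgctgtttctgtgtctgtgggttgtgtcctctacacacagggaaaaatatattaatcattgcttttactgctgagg
Col6a3: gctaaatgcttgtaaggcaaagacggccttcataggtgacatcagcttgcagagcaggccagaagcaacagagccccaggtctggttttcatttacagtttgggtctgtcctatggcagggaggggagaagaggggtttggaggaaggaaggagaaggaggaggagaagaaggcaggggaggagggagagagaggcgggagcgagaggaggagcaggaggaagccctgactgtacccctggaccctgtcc
Col27a1: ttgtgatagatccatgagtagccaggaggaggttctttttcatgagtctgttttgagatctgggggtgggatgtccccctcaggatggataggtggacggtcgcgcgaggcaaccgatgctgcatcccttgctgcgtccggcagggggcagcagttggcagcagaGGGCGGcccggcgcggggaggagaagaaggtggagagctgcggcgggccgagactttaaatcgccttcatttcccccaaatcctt
Col3a1 held 1 match, to the letters TATAAA at 117 to 112 bases before the start. Col27a1 held 1 match, to the letters GGGCGG at 85 to 80 bases before the start. Whether either match works as a promoter element was not tested. Col6a3 held no match to these letters. Over the 32851 such stretches in the RefSeq table, 16.1% held the receptor hexamer, 32.7% the GC box, 33.8% the CCAAT box and 12.4% the TATA box. No match overlapped another in the 3 stretches printed. The table had stretches for 24 of the 30 tested collagens, 26 in all. Of these 26, 1 held the receptor hexamer, 16 the GC box, 8 the CCAAT box and 3 the TATA box.

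CORT lowered transcripts of the basement membrane chains Col4a1 and Col4a2, the fibrillar Col3a1, the type VI chain Col6a3 and the FACIT members Col14a1 and Col20a1, each by more than 2-fold against Isotype + Vehicle livers, and raised the fibrillar Col27a1. A gene was called at an adjusted p of at most 0.05 (edgeR quasi-likelihood test, Benjamini-Hochberg over all genes tested) with a log2 fold change of at least 1 in size. By that rule 6 of 30 collagens were lower and 1 was higher. Over all genes tested, 1.43% were called lower and 0.51% higher. The median log2 fold change was -0.72 over the 30 collagens and 0.00 over all genes tested, and 25 of the 30 estimates were negative. In bulk tissue, fewer cells of a type and less RNA per cell cannot be told apart.

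Col4a1 shared the lowest adjusted p of the collagens with Col14a1. Col4a1 (chr8:11248423-11362826 in GRCm39, minus strand) and Col4a2 (chr8:11362471-11499287, plus strand) encode the chains of the commonest type IV helix and lie head to head. Their first exons overlap, 4.94% and 4.93% of the exon bases of each lying opposite another gene. In Isotype + Vehicle livers Col4a1 measured 22.5, 31.9, 22.3, 15.6 and 36.5 CPM, and in Isotype + CORT livers 9.57, 6.36, 9.72, 10.6 and 12.4 CPM. These groups did not overlap, and Col4a1 was 2.65-fold lower with CORT (log2 fold change -1.40 ± 0.23 (SE), adjusted p = 0.000853). Col4a2 measured 19.1, 14.9, 23.0, 16.8 and 23.0 CPM without CORT and 9.10, 6.16, 8.92, 7.43 and 10.2 CPM with it. Here too the groups stayed apart, with a 2.32-fold fall (-1.21 ± 0.23 (SE), adjusted p = 0.00274). Every alternative analysis kept both calls.

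The other type IV chains did not pass. Col4a3, Col4a4, Col4a5 and Col4a6 make the helices of specialized basement membranes such as that of the kidney glomerulus, and here none exceeded 7.48 CPM in any liver. Their log2 fold changes with CORT were -0.77, -1.32, -0.72 and 0.76, each within 2 standard errors of 0. Over the 6 type IV genes the median was -0.99, with 2 called lower.

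Fibrillar members split. Col3a1, the type III chain of fine reticular fibres (chr1:45350698-45395840), measured 29.1, 49.4, 24.6, 28.7 and 71.1 CPM in Isotype + Vehicle livers and 23.9, 13.5, 17.04, 12.6 and 27.1 CPM in Isotype + CORT livers. The ranges overlapped, since 1 CORT liver lay above the lowest vehicle liver, and replicates 2 and 5 stood high in the vehicle group. The fall was 2.15-fold (-1.11 ± 0.26 (SE), adjusted p = 0.0163). It lost the call without Isotype + Vehicle replicate 2 (-1.04, adjusted p = 0.0520) or replicate 5 (-0.82, adjusted p = 0.0881).

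Col1a1, the type I chain most often followed in fibrosis, was not called. It measured 9.27, 19.3, 7.97, 2.63 and 18.2 CPM in Isotype + Vehicle livers and 3.08, 1.90, 2.35, 3.78 and 11.7 CPM in Isotype + CORT livers. In each group 3 livers lay inside the other group's range, and the estimate of -1.33 ± 0.49 (SE) had an adjusted p of 0.148. Without Isotype + CORT replicate 5, at 11.7 CPM, it passed (-2.05, adjusted p = 0.0174). Its partner chain Col1a2 had a log2 fold change of -0.53 ± 0.26 (SE), adjusted p = 0.328.

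Col27a1 moved the other way. This long fibrillar collagen, known from cartilage (chr4:63132241-63253228), measured 54.1, 70.9, 75.2, 90.3 and 70.7 CPM in Isotype + Vehicle livers. In Isotype + CORT livers it measured 143, 147, 119, 92.2 and 226 CPM. All 5 CORT livers lay above all 5 vehicle livers, the nearest pair being 92.2 and 90.3 CPM, and the rise was 2.01-fold (1.01 ± 0.24 (SE), adjusted p = 0.0178). The estimate sat at the fold limit and lost the call in 7 of the 20 fits that left out 1 liver. These were the fits without Isotype + Vehicle replicates 1, 2 or 5, Isotype + CORT replicates 2 or 5, or αACBP + Vehicle replicates 2 or 5, and the estimate was smallest without Isotype + CORT replicate 5 (0.79, adjusted p = 0.0559). Its downstream neighbour on the same strand, Orm1, an acute-phase gene of hepatocytes at 728 to 1321 CPM in these groups, had a log2 fold change of -0.03 ± 0.24 (SE).

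The type V genes, which set fibril diameter, did not pass. Col5a3 had a log2 fold change of 0.27 ± 0.23 (SE), Col5a1 of -0.16 ± 0.22 and Col5a2 of -0.73 ± 0.62, with adjusted p of 0.667, 0.829 and 0.665. Neither did Col11a2 and Col24a1 (-0.93 ± 0.40 and -0.63 ± 1.07). Over the 9 fibrillar genes tested the median log2 fold change was -0.63, with 1 called lower and 1 higher.

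Of the FACIT collagens, Col14a1 (chr15:55171140-55384199) gave the tightest contrast. This gene encodes a collagen of fibril surfaces and measured 42.0, 44.7, 41.7, 38.3 and 43.4 CPM in Isotype + Vehicle livers. It measured 18.1, 17.7, 21.0, 19.7 and 12.8 CPM in Isotype + CORT livers. The groups did not overlap, with a range of 38.3 to 44.7 against 12.8 to 21.0 CPM. The fall was 2.35-fold (-1.23 ± 0.20 (SE), adjusted p = 0.000853) and held under every alternative.

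Col20a1 (chr2:180628316-180660156) fell 2.91-fold (-1.54 ± 0.32 (SE), adjusted p = 0.00654). It measured 14.3, 19.03, 17.5, 43.7 and 15.8 CPM in Isotype + Vehicle livers and 8.00, 7.61, 7.85, 5.61 and 8.76 CPM in Isotype + CORT livers, with no overlap. In GENCODE M39 its end lies 17 bases from the end of Chrna4, a nicotinic receptor subunit on the opposite strand. Whether the libraries or the counting used strand is not given in the sources used here, and reads that run past the end of one gene can then be counted for the other. Chrna4 measured 171, 181, 157, 727 and 126 CPM in Isotype + Vehicle livers and 0 to 7.11 CPM in Isotype + CORT livers. The liver with the most Chrna4 also held the most Col20a1 in 3 groups: replicate 4 of Isotype + Vehicle, replicate 5 of αACBP + Vehicle (310 and 25.1 CPM) and replicate 5 of αACBP + CORT (208 and 26.1 CPM). In Isotype + CORT the liver with the most Chrna4, replicate 4, held the least Col20a1 (5.61 CPM), and Col20a1 was still present at 8.00 CPM in the liver where Chrna4 was at 0. The part of Chrna4 reads in the Col20a1 count was not tested. Of the other FACIT members tested, Col16a1 (-0.41 ± 0.35), Col12a1 (0.27 ± 0.50) and Col9a3 (-1.07 ± 1.05) were not called, and the class median was -1.07.

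**Figure D2:**
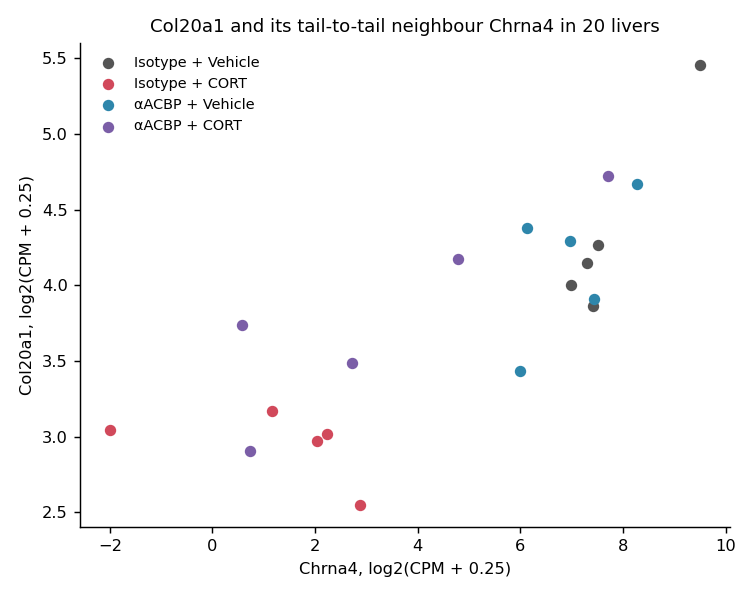
Col20a1 against Chrna4 in each of the 20 livers, as log2(CPM + 0.25) on both axes, coloured by group. The Isotype + CORT livers and several αACBP + CORT livers lie to the lower left, and the liver with 727 CPM of Chrna4 is also the one with 43.7 CPM of Col20a1.

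Among the type VI chains, Col6a3 (chr1:90693645-90771780), the longest of them, measured 10.7, 15.3, 12.4, 19.03 and 24.0 CPM in Isotype + Vehicle livers and 1.98, 11.5, 5.72, 7.30 and 5.86 CPM in Isotype + CORT livers. One CORT liver lay inside the vehicle range. The fall was 2.51-fold (-1.33 ± 0.34 (SE), adjusted p = 0.0281), but the call was lost without Isotype + Vehicle replicates 2, 4 or 5 or Isotype + CORT replicate 1, with adjusted p up to 0.0934. Its partner chains gave -0.40 ± 0.22 (SE) for Col6a1 (adjusted p = 0.408) and -1.10 ± 0.44 for Col6a2 (adjusted p = 0.193). Col6a5, at 0 in 10 of the 20 livers, was at 0 in 4 Isotype + CORT livers and at 0.129 CPM in the fifth, against 0.301 to 3.06 CPM in Isotype + Vehicle livers (adjusted p = 0.140). Over the 5 type VI genes tested the median was -1.33, with all estimates negative and 1 called.

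The most abundant collagen did not pass the test. Col18a1 ranged from 902 to 1219 CPM in Isotype + Vehicle livers and from 904 to 1251 CPM in Isotype + CORT livers, a log2 fold change of -0.01 ± 0.15 (SE), adjusted p = 0.984. Col15a1, the other multiplexin, ranged from 5.45 to 16.9 and from 3.76 to 13.8 CPM (-0.15 ± 0.36). The summed CPM of all collagens overlapped between these groups, at 1372 to 1692 and 1283 to 1687 CPM, and so did the sum without Col18a1, at 360 to 533 and 357 to 494 CPM. The transmembrane Col13a1 and Col23a1 (-0.17 and -0.66) and the anchoring fibril gene Col7a1 (0.27) were not called either.

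**Figure D3:**
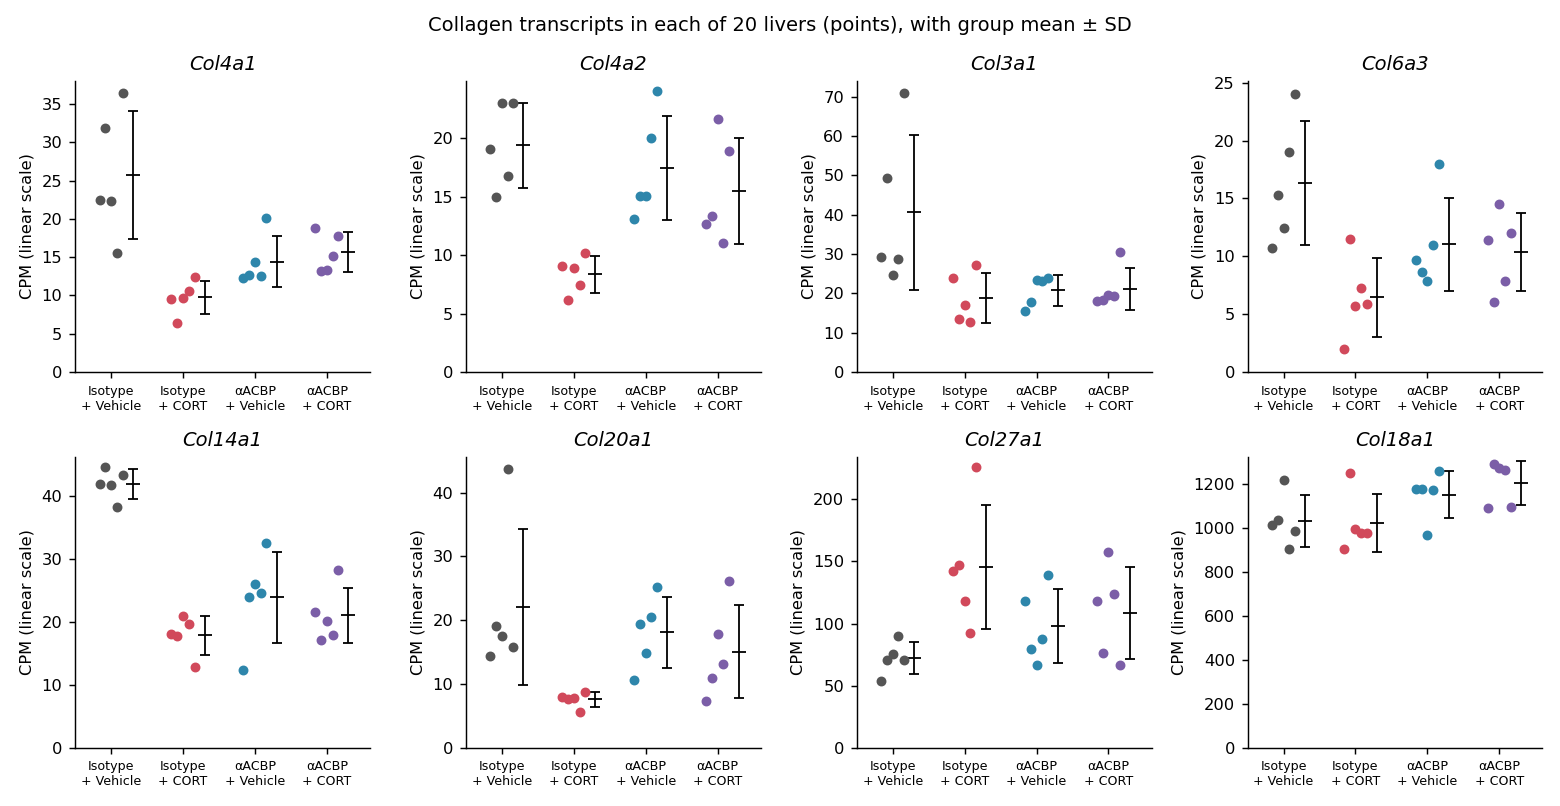
CPM of the 7 collagens called with CORT, and of Col18a1, in each of 20 livers (points) by group, on linear axes that start at 0, with the mean ± SD (bars) beside each group of 5. The Isotype + CORT livers lie below all Isotype + Vehicle livers for Col4a1, Col4a2, Col14a1 and Col20a1 and above them for Col27a1, while Col18a1 overlaps.

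Adding αACBP to CORT did not bring any collagen past the threshold. Of 30 collagens, 0 were called in αACBP + CORT against Isotype + CORT by edgeR and 0 by DESeq2, with 5 at an unadjusted p under 0.05. Over all genes tested, 0.504% were called higher and 0.0933% lower. This comparison shares the Isotype + CORT livers with the one above, so that the values are given side by side and not correlated.

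Among the collagens described by value, the type IV chain Col4a2 had the lowest adjusted p. Col4a2 measured 12.6, 13.3, 21.6, 11 and 18.9 CPM in αACBP + CORT livers, all above the Isotype + CORT maximum of 10.2 CPM, a log2 difference of 0.89 ± 0.23 (SE), adjusted p = 0.0538. Col4a1 measured 18.9, 13.1, 13.3, 15.2 and 17.8 CPM, again all above the Isotype + CORT maximum of 12.4 CPM, with a difference of 0.69 ± 0.23 (SE), adjusted p = 0.162. Col4a1 and Col4a2 were thus both higher in 5 of 5 livers without passing the correction in this fit. Both had been called lower in the Isotype + CORT livers, which are the baseline here, so that this separation is not separate support. The share of all genes whose groups do not overlap was not counted, in this or any other comparison. Apart from fits that left out a liver, the adjusted p of Col4a2 ran from 0.0177 (DESeq2) to 0.151 (only these groups fitted). It was also below 0.05 with the strict filter of 10 counts in every liver (0.0445) and with a replicate block (0.0453). The estimate of Col4a2 stayed under the fold limit in these alternatives, at 0.88 to 0.93. When 1 liver was left out, its adjusted p reached 0.200 and its estimate ran from 0.74 to 0.99. Without αACBP + Vehicle replicate 5 its adjusted p was 0.0353. Col20a1 differed by 0.99 ± 0.32 (SE), adjusted p = 0.138, with overlapping groups (7.25 to 26.1 CPM with αACBP). Col6a3 (0.68 ± 0.34), Col3a1 (0.17 ± 0.26) and Col14a1 (0.24 ± 0.20) gave adjusted p of 0.419, 0.897 and 0.743. Col27a1 gave -0.42 ± 0.24 (SE), adjusted p = 0.508. Over the 30 collagens the median was 0.24 and 22 estimates were positive, against a median of 0.01 over all genes tested. The medians were 0.30 for the type IV and 0.17 for the fibrillar genes. Both moved by over 1.5 times under some alternatives. The type IV median was 0.62 without Isotype + CORT replicate 1 and 0.68 with the strict filter. The fibrillar median was 0.33 and 0.090 without Isotype + CORT replicates 5 and 4, 0.073 and 0.064 without αACBP + CORT replicates 4 and 5, and 0.077 with the strict filter.

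**Figure D4:**
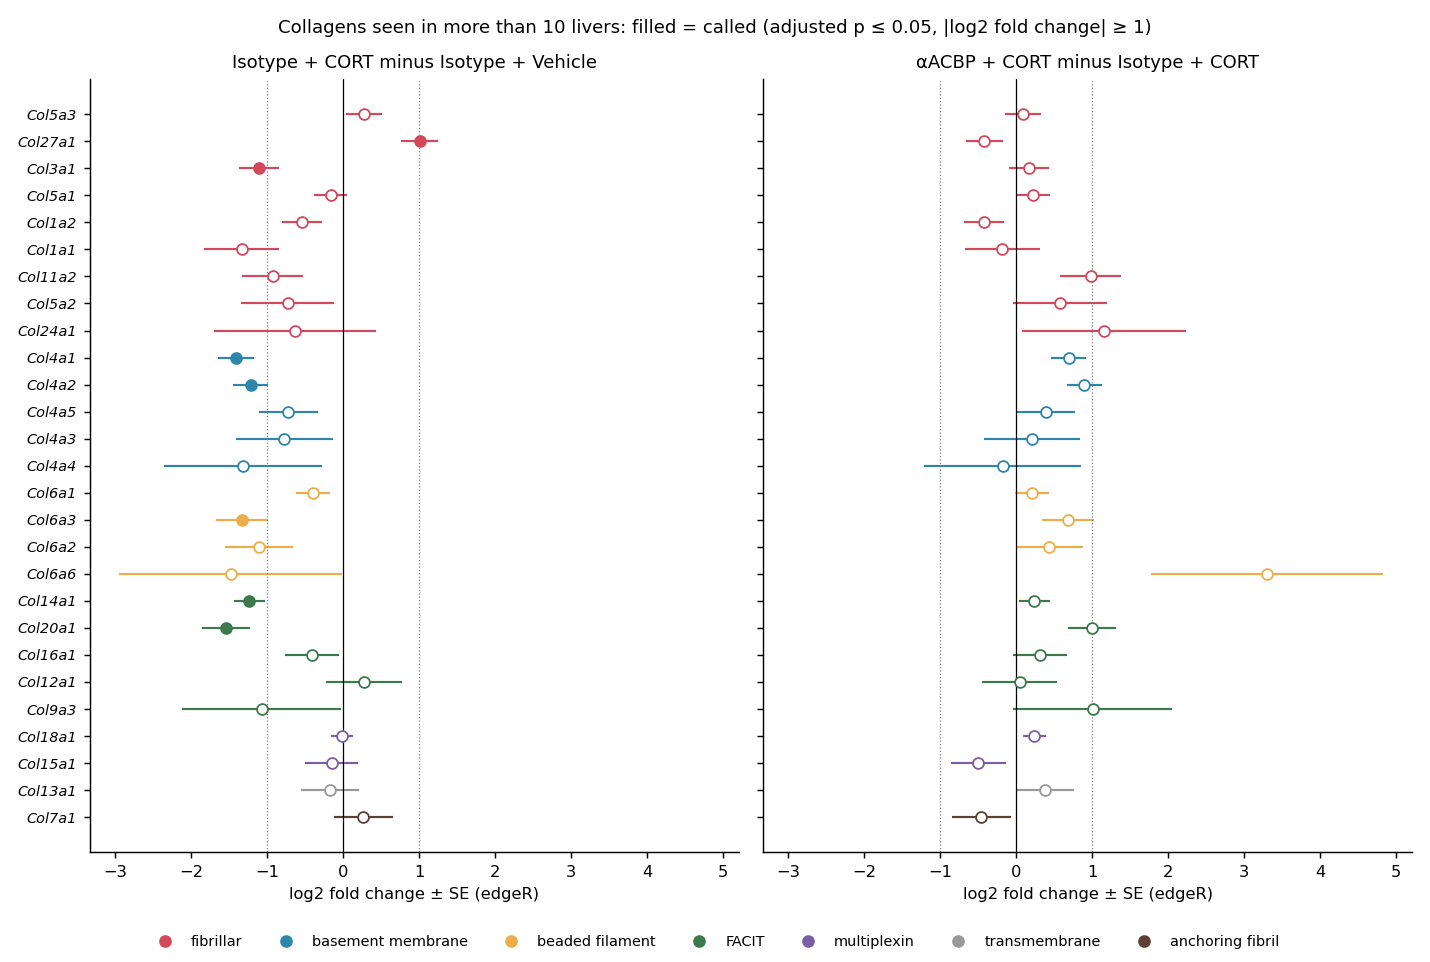
Log2 fold change ± SE (edgeR) for the 27 tested collagens that were at 0 in fewer than 10 livers, coloured by class, for Isotype + CORT minus Isotype + Vehicle (left) and αACBP + CORT minus Isotype + CORT (right). Dotted lines mark the fold limit, filled points are called: 7 on the left (6 lower, 1 higher) and none on the right.

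Whether the CORT difference itself depended on the antibody was tested as an interaction. Col4a1 was the 1 collagen called, higher by 1.52 ± 0.33 (SE) on the log2 scale (adjusted p = 0.0480). Over all genes tested 0.0996% were called higher and 0.0436% lower. Under isotype CORT lowered Col4a1 by the -1.40 given above, and under αACBP its log2 fold change was 0.12 ± 0.23 (SE). The αACBP + Vehicle livers (12.3, 12.7, 14.4, 12.6 and 20.2 CPM) themselves lay below 4 of the 5 Isotype + Vehicle livers, so that the interaction holds a difference between the vehicle groups too. The call was lost in 11 of 20 fits that left out 1 liver, namely Isotype + Vehicle replicates 1, 2 or 5, Isotype + CORT replicates 1 or 2, αACBP + Vehicle replicates 1 or 2, or αACBP + CORT replicates 1, 2, 3 or 4. The estimate ranged from 1.38 to 1.70 over all 20 and the adjusted p reached 0.117. The interaction estimates of Col14a1 (1.05 ± 0.29), Col4a2 (1.04 ± 0.32), Col3a1 (1.13 ± 0.37) and Col20a1 (1.28 ± 0.44) had adjusted p of 0.105, 0.175, 0.205 and 0.239. The interaction estimate of Col6a3 was 1.24, with adjusted p from 0.210 to 0.352 (edgeR or DESeq2) in the alternatives that kept every liver. These genes were named because CORT lowered them under isotype. That difference enters the interaction with its sign reversed, so that their positive signs are not separate support. DESeq2 called Col14a1 in addition.

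Under αACBP, CORT against vehicle gave 0 collagens called by edgeR and 0 by DESeq2, with 2 at an unadjusted p under 0.05. Over all genes tested, 0.168% were called higher and 0.0436% lower. The estimates were -0.17 ± 0.23 (SE) for Col4a2, 0.03 ± 0.26 for Col3a1, -0.18 ± 0.20 for Col14a1 and 0.15 ± 0.24 for Col27a1. The median over the 30 collagens was -0.21. For the 6 type IV genes it was -0.69, against -0.99 under isotype, with 5 estimates negative and 0 called. For the 9 fibrillar genes it was -0.20, against -0.63 under isotype.

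Without CORT, αACBP against isotype also gave 0 calls by either tool, with 5 at an unadjusted p under 0.05. Over all genes tested, 0.684% were called higher and 0.616% lower. Still, 3 collagens had an adjusted p below 0.05 with a change under the fold limit. Col14a1 measured 12.4, 23.9, 26.0, 24.6 and 32.6 CPM in αACBP + Vehicle livers, all below the Isotype + Vehicle minimum of 38.3 CPM (-0.81 ± 0.20 (SE), adjusted p = 0.0221). Col3a1 (15.5 to 23.9 CPM, -0.97 ± 0.26, adjusted p = 0.0299) also lay below every Isotype + Vehicle liver. Col4a1 gave -0.84 ± 0.23 (adjusted p = 0.0324) with overlapping groups. Col4a2 gave -0.15 ± 0.23, adjusted p = 0.795, in contrast to its partner, but the difference between these chains was not tested. Col3a1 passed the fold limit, with adjusted p up to 0.0465, without any one of Isotype + Vehicle replicates 1, 3 or 4 or αACBP + Vehicle replicates 3 or 4. Col1a1 passed without Isotype + Vehicle replicate 4 (-1.50, adjusted p = 0.0433).

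Between the αACBP + CORT and Isotype + Vehicle groups, which differ in both treatments, 0 collagens were called by edgeR and 1 by DESeq2, with 6 at an unadjusted p under 0.05. Over all genes tested, 0.0373% were called higher and 0.0311% lower. Col14a1 lay just inside the fold limit (-0.997 ± 0.20, adjusted p = 0.0442), at 21.6, 17.2, 20.2, 17.98 and 28.3 CPM in αACBP + CORT livers, all below the Isotype + Vehicle range. It was called when Isotype + CORT replicates 2 or 5, αACBP + Vehicle replicate 5 or αACBP + CORT replicate 5 was left out, at -1.001 to -1.13. Col4a1 (-0.72 ± 0.23) and Col4a2 (-0.32 ± 0.23) gave adjusted p of 0.281 and 0.880. The median of the 6 type IV genes was -0.45, with all estimates negative and 0 called.

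Fibrillar and basement membrane collagens were then set against each other within each liver, as the log2 ratio of their summed CPM. This is a description with no test. Basement membrane collagens (Col4a1 to Col4a6) summed to 49.6, 53.5, 55.7, 44.4 and 65.8 CPM in Isotype + Vehicle livers and 27.6, 18.1, 22.8, 21.0 and 26.1 CPM in Isotype + CORT livers, with no overlap. The αACBP + Vehicle sums ran from 28.9 to 61.5 CPM and the αACBP + CORT sums from 31.4 to 42.7 CPM, both above every Isotype + CORT liver. Fibrillar sums overlapped in all groups, at 196 to 311, 258 to 381, 237 to 394 and 243 to 354 CPM in the order of the groups above.

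The mean log2 ratio of fibrillar to basement membrane sums was 2.29 ± 0.20 (SD, n = 5) in Isotype + Vehicle and 3.77 ± 0.30 in Isotype + CORT livers, a difference of 1.48. It was 2.86 ± 0.53 in αACBP + Vehicle and 2.97 ± 0.26 in αACBP + CORT livers. The αACBP + CORT mean was thus 0.80 below that of Isotype + CORT, and no αACBP + CORT liver (2.72 to 3.35) reached the lowest Isotype + CORT liver (3.37). As a mean of log2 CPM over members, which gives each gene equal weight, the CORT difference was 0.37 and the αACBP difference under CORT -0.089. With Col15a1 and Col18a1 counted as basement membrane collagens they were 0.31 and -0.36. The size of this shift also rested on the abundant Col5a3 and Col27a1, the latter of which rose. Without these 2 genes the CORT difference in the ratio was 0.51 and the αACBP difference under CORT -0.56. With Col1a1, Col1a2 and Col3a1 set against Col4a1 and Col4a2 alone, the differences were 0.42 and -0.84. That narrower ratio overlapped between Isotype + Vehicle (0.26 to 1.02) and Isotype + CORT livers (0.75 to 1.30), whereas αACBP + CORT livers (-0.30 to 0.35) lay below every Isotype + CORT liver. These last 2 ratios were added after the data had been seen.

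**Figure D5:**
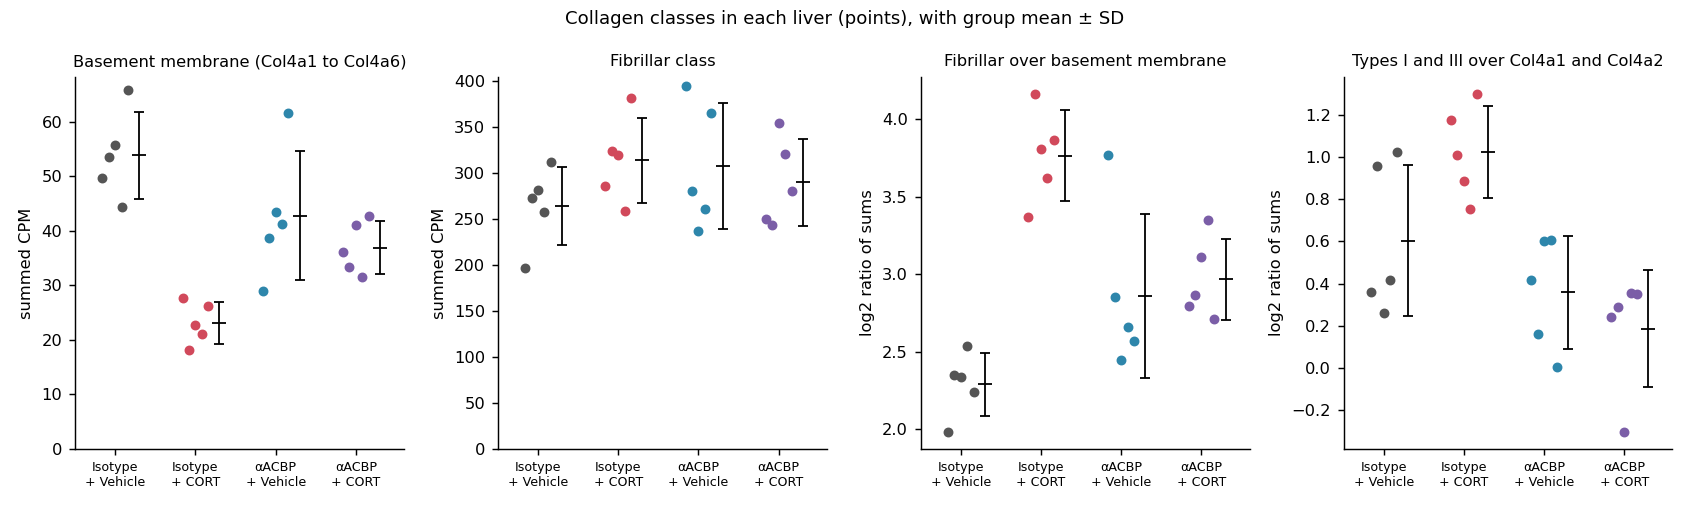
Summed CPM of the basement membrane and fibrillar collagens (left pair of panels, axes from 0) and log2 ratios of sums (right pair) in each of 20 livers (points), with mean ± SD (bars) for each group of 5. Isotype + CORT livers hold 18.1 to 27.6 CPM of basement membrane collagens against 44.4 to 65.8 CPM in Isotype + Vehicle, and their ratio of all fibrillar to basement membrane sums (3.37 to 4.16) is above every other liver but 1 of αACBP + Vehicle (3.77), while the narrow ratio overlaps between these groups.

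The collagen processing list holds enzymes that modify, cleave and crosslink collagen, and proteins that assist them. Of 29 genes tested in it, 2 were lower with CORT and 0 higher (median log2 fold change -0.10). Over all genes tested, 1.43% were called lower and 0.51% higher. The same shares apply to the CORT counts of the lists below, and those of the other comparisons were given above. Pcolce, which enhances cleavage of the procollagen tail, fell 2.16-fold (-1.11 ± 0.24 (SE), adjusted p = 0.00905). Loxl4, a lysyl oxidase that crosslinks collagen, measured 12.6, 9.36, 8.78, 12.6 and 8.63 CPM in Isotype + Vehicle livers and 1.78, 1.35, 3.95, 3.19 and 0.193 CPM in Isotype + CORT livers. It fell 4.94-fold (-2.30 ± 0.53, adjusted p = 0.0143) without overlap. Loxl4 was the 1 gene of this list called higher in αACBP + CORT than in Isotype + CORT livers (2.22 ± 0.53, adjusted p = 0.0369; 3.40 to 16.1 CPM), and its interaction was called as well (3.74 ± 0.74, adjusted p = 0.0312). The αACBP + Vehicle livers, at 0.905 to 6.42 CPM, all lay below the Isotype + Vehicle livers (-1.52 ± 0.51, adjusted p = 0.0791), so that this interaction too holds a difference between the vehicle groups. The abundant P4hb, a prolyl hydroxylase subunit, and Ppib, a collagen chaperone, were not called.

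The collagen degradation list holds proteases and also their inhibitors Timp1, Timp2, Timp3 and Timp4. Of its 14 genes tested, 0 were called by edgeR in any of the 6 comparisons. For CORT under isotype, 4 had an unadjusted p under 0.05 (list median -0.15). Mmp14, a membrane-bound collagenase, averaged 90.7 CPM in Isotype + Vehicle and 90.6 CPM in Isotype + CORT livers. Of 9 collagen receptors tested, 0 were called in any comparison, with 1 at an unadjusted p under 0.05 for CORT under isotype (median -0.55).

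Among 16 partners of type IV collagen in basement membranes, 1 was lower with CORT. Nid2, a nidogen that links laminin to type IV collagen, fell 4.45-fold (-2.15 ± 0.35 (SE), adjusted p = 0.000853), from 22.3, 24.2, 14.7, 42.4 and 32.5 CPM to 9.23, 4.65, 9.94, 4.04 and 2.64 CPM. In αACBP + CORT livers it measured 9.14 to 22.0 CPM. Hspg2, the perlecan core protein, was not called. The other 15 were not called, and the median of the list was -0.09. Of 22 interstitial matrix partners tested, 1, Eln, the elastin gene, was called lower (-1.12 ± 0.30, adjusted p = 0.0378), with a list median of -0.79 and 19 of 22 estimates negative. Of 18 TGF-beta signalling genes (median -0.16), 1 was called, Ltbp4, which anchors latent TGF-beta in the matrix (-1.15 ± 0.19, adjusted p = 0.000980).

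Markers of the cells that make collagen moved unevenly with CORT. Of 14 stellate cell markers, 0 were called in Isotype + CORT against Isotype + Vehicle (median -0.08), with 4 at an unadjusted p under 0.05, and their summed level was 511 to 625 CPM against 409 to 617 CPM. Ecm1 and Angptl6 hold most of that sum, and Lrat, the defining retinol-esterifying enzyme, had a log2 fold change of -0.04 ± 0.28 (SE). Of 11 sinusoidal endothelial markers 0 were called and 2 had an unadjusted p under 0.05 (median -0.25), with sums of 364 to 515 and 387 to 454 CPM. Of 6 vascular smooth muscle markers 0 were called and 0 had an unadjusted p under 0.05 (median -0.15), with sums of 30.2 to 51.8 and 18.3 to 58.3 CPM. These lists were tested by edgeR alone.

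Portal fibroblast markers gave calls. Their 10 genes summed to 27.1 to 57.7 CPM in Isotype + Vehicle livers and 16.8 to 23.8 CPM in Isotype + CORT livers, without overlap, and 2 of 9 tested were called lower (list median -1.03), Gli1 and Eln, the latter also in the interstitial list. Gli1, a hedgehog-responsive transcription factor, was at 0 in all 5 Isotype + CORT livers and at 0.355 to 2.94 CPM in Isotype + Vehicle livers, and Clec3b was at 0 in Isotype + CORT too. Gli1 was present again in αACBP + CORT livers, at 0.940 to 1.72 CPM, and was called in that comparison and in the interaction. The list sum in αACBP + CORT livers was 15.1 to 27.9 CPM. Of 6 Kupffer cell markers, Clec4f, Cd5l, Vsig4 and Timd4 were called lower with CORT (list median -1.25, sums 263 to 525 and 96.9 to 295 CPM), and Clec4f was called higher in αACBP + CORT than in Isotype + CORT livers (2.68-fold, adjusted p = 0.00275). The part of portal fibroblasts or Kupffer cells in the collagen differences was not tested.

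The other lists held no gene called with CORT under isotype. Cholangiocyte markers summed to 63.5 to 98.7 and 34.3 to 116 CPM, and mesothelial markers to 2.75 to 9.09 and 2.202 to 7.73 CPM. The adipocyte list, of which Adipoq, Plin1 and Lep were at 0 in Isotype + CORT, summed to 1380 to 2244 and 939 to 1544 CPM, nearly all of it Car3, which hepatocytes also express. Pancreatic acinar markers summed to 12.3 to 24.4 and 7.75 to 14.3 CPM. For hepatocyte markers the sums were 66472 to 115610 and 80250 to 136250 CPM, with no call. In αACBP + Vehicle against Isotype + Vehicle livers 1 stellate marker was called, Lrat, which measured 3.63 to 10.3 against 12.7 to 17.9 CPM (-1.01 ± 0.28, adjusted p = 0.0332).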

How the data were processed

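Bulk liver RNA from 20 mice was sequenced as paired reads, aligned by the authors with HISAT2 and counted per gene with HTSeq-count in union mode, non-unique features included. The authors deposited whole-number counts per gene and liver in 1 table, not normalized. The methods name GRCm39 and the submitters' processing notes mm10. Annotation release and strand setting are not given in the sources used here. Reads that the counting assigned to no feature made up 42.3% to 45.2% of each library. They were left out of library sizes, as were the other non-gene lines.

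Counts were scaled by TMM, filtered with filterByExpr and fitted with edgeR 4.0.16 (quasi-likelihood, R 4.3.3) in 1 model of 4 groups. CPM values are TMM-scaled. Calls needed an adjusted p of at most 0.05 and a log2 fold change of 1 or more in either direction. Members called in any comparison, a fixed set of 13 and the 10 of highest mean CPM, 16 genes in all, were described by value. From the partner and marker lists, genes called and the most abundant were named. The members and lists were chosen with earlier results of these data known. Class sums, ratios and medians are descriptions. The code was also run on counts simulated with the dispersions of this fit, which cannot show whether the model suits the real livers. Exon lengths and gene positions came from GENCODE M39 (GRCm39), in which 91.4% of the table's identifiers and all 44 collagens were found. Promoters came from RefSeq (GRCm38.p6).

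Replicate numbers name different mice, and nothing in the labels pairs them. Over 30 same-numbered pairs the correlation of deviations from the group means ran from -0.115 to 0.114 (median -0.0086). No 2 livers of a group agreed within sampling noise. The fold limit follows the study's rule, whereas the adjustment of p does not, because none is named. Alternatives were DESeq2 1.42.0 (Wald test and size factors), other filters and library sizes, unadjusted p, no fold limit, only the groups compared, a replicate block and leaving out each liver. With 5 animals a group, the p-values of the main fit set differences against the spread between mice, estimated over all 4 groups together. They do not cover a repeat of the experiment.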

Additional observations from a re-analysis of the deposited data

Results flagged for a closer look

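In 76 sets of 5 livers (each described collagen and class measure in each group), the highest or lowest liver was set against the rest with Dixon's ratio, which by chance flags about 1 set in 20. The ratio passed in 5 sets. In Isotype + Vehicle, Col20a1 reached 43.7 CPM in replicate 4, the liver that also held the most Chrna4. In Isotype + CORT, Col1a1 reached 11.7 CPM in replicate 5 and Col18a1 reached 1251 CPM in replicate 2. In αACBP + Vehicle, Col4a1 reached 20.2 CPM in replicate 5, the library with the largest scaling factor. In αACBP + CORT, Col3a1 reached 30.5 CPM in replicate 5.

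The CORT difference of Col4a1 was not the same under αACBP as under isotype by the interaction test (log2 1.52, edgeR adjusted p = 0.0480). It was negative under isotype and near 0 under αACBP, and the call depended on single livers as stated above.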

How the results depend on the processing

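The count of 7 collagens called with CORT under isotype was 6 to 7 under other normalizations, filters and DESeq2, 10 with unadjusted p, and 4 when only the 2 groups compared were fitted (Col4a1, Col4a2, Col14a1 and Col20a1 stayed, and Col3a1 and Col6a3 had adjusted p of 0.0659 and 0.0693). It was 4 to 7 when 1 liver was left out. Col27a1 missed the fold limit with no filter (0.99), without the 20 most abundant genes (0.93), with only the groups compared (0.998) and with the replicate block (0.98). Fitted with replicate number as a block, the count was 7, with Col6a5 in place of Col27a1, and no other call of a described collagen in that comparison changed. Of 20 livers, 3 correlated best with another of their own number. For αACBP against isotype under CORT the count of 0 was 1 with unadjusted p and 0 to 0 without 1 liver. For CORT under αACBP it was 1 with unadjusted p and 0 to 0 without 1 liver. For αACBP against isotype under vehicle it was 1 with unadjusted p, 3 with no fold limit and 0 to 2 without 1 liver. For αACBP + CORT against Isotype + Vehicle it was 1 (Col14a1) with DESeq2 size factors, the DESeq2 Wald test, no filter, the strict filter of 10 counts in every liver or no fold limit, 1 (Col1a1) with unadjusted p, and 0 to 1 without 1 liver. The interaction count of 1 was 2 with the DESeq2 Wald test, 7 with unadjusted p, 0 without the 20 most abundant genes (Col4a1, adjusted p = 0.0545) and 0 to 1 without 1 liver. Class medians moved by less than the spread between livers under every alternative run. Those of αACBP against isotype under CORT still moved by over 1.5 times, as given above, and so did others. With no liver left out, the type IV median for CORT under αACBP (-0.69) ran from -0.79 to -0.20. For αACBP against isotype under vehicle (0.21) it ran from -0.13 to 0.29, so that its sign turned. When 1 liver was left out, the fibrillar medians of these comparisons ran from -0.32 to -0.061 and from 0.12 to 0.42.

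The difference of 1.48 in the fibrillar to basement membrane ratio with CORT was 0.31 with Col15a1 and Col18a1 in the basement membrane class, 0.37 as a mean of log2 CPM over members, 0.42 for types I and III over Col4a1 and Col4a2, 0.51 without Col5a3 and Col27a1, and 1.38 to 1.57 without 1 liver. Under CORT the αACBP difference of -0.80 was -0.36, -0.089, -0.84 and -0.56 in the same order, and -0.90 to -0.70 without 1 liver. CORT under αACBP gave 0.11, which became -0.12, 0.16, -0.17 and -0.065 in that order, so that its sign turned in 3 of them, and 0.0048 to 0.34 without 1 liver. αACBP under vehicle gave 0.57, which became 0.067, 0.13, -0.24 and 0.014 in that order and 0.34 to 0.67 without 1 liver. The cause of these shifts was not tested. At these depths, collagens with a few counts per liver, such as Col4a6 and Col6a6, had wide errors (SE of 1.80 on the log2 scale for Col4a6 with CORT), so that a change of the sizes above could not be seen.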
